A study of Homo sapiens with 3 samples.

Results

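Promoter contacts of 45 genes that drive or restrain the cell cycle were described in cardiomyocytes made from a human embryonic stem cell line (hESC-CMs). A promoter fragment was a HindIII fragment listed as the captured end of a call and holding an annotated transcript start of 1 of these genes. Of the 45 genes, 40 had such a fragment, and *CCNB1*, *CDKN1B*, *CDC25A* and *WEE1* had a pair of them, which gave 44 of the 19075 promoter fragments in the calls. These 44 fragments took part in 633 of 219827 contacts, a contact being a promoter fragment and 1 partner fragment called together in at least 1 replicate, with a contact of 2 promoter fragments counted at each of them.

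In promoter capture Hi-C (PCHi-C), chromatin is fixed and digested with HindIII, fragments that were near each other in the nucleus are ligated, and ligation products that carry a promoter are captured for sequencing. The cells were the line WA09 (H9) at passage 32, taken to cardiomyocytes with a commercial kit of differentiation media A and B (2 days each). They were later enriched in medium without glucose and with 4 mM lactate for 6 days. A last culture of 7 days came before fixation in 2% formaldehyde for 10 min. Maintenance, replating and recovery steps between these are not listed here, so the days given are not the full culture time. All 3 biological replicates received this treatment, so there was 1 condition and no comparison between groups. The sources give a purity of at least 80 to 90% by myosin heavy chain and *TNNT2*, so other cells may have remained. The calls hold no expression values with which to check the cell type. Replicate 1 had 112473 calls, replicate 2 had 109731 and replicate 3 had 110740, each with a CHiCAGO score of 5 or more. A higher score marks stronger evidence for more read pairs than the background at that distance. It does not measure the size of the excess. Read depth per replicate was not given in the sources used here. A pair missing from a list had no score of 5 or more there and was not shown to be absent. A contact in few cells and a weak contact in many cannot be told apart.

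Cyclins bind and activate cyclin-dependent kinases (CDKs), which drive the steps from growth to DNA replication and mitosis. D-type cyclins with CDK4 or CDK6 phosphorylate the pocket proteins, which releases E2F factors to switch on genes for DNA replication, and CDK inhibitors hold these kinases in check. Cardiomyocytes largely leave the cell cycle as they mature, and many promoters of these genes are known targets of repression by pocket proteins and E2F factors.

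The promoters of 4 members are shown because they span the sequence types of the set: *MCM6* and *E2F1* hold words of the E2F site, *CDC20* holds the CHR and CCAAT boxes found in promoters of mitotic genes, and *CDK6*, the member with the most contacts in 1 fragment, holds none of these. Each is the stretch of 250 bases just before a RefSeq start, read 5′ to 3′ on the strand of the gene in GRCh37, outside any annotated exon and inside the promoter fragment described here. Capitals mark the words searched on both strands: TTTCCCGC, TTTGGCGC, TTTCGCGC and TTTGCCGC for E2F, TTTGAA and TTCGAA for the CHR, and CCAAT. In *MCM6* (chr2:136634014-136634263, minus strand) the words TTTGGCGC and TTTCGCGC overlap on opposite strands in each of the long capital runs, so its 4 matches stand at 2 places. The others are *E2F1* (chr20:32274192-32274441, minus strand), *CDC20* (chr1:43824402-43824651, plus strand) and *CDK6* (chr7:92465888-92466137, minus strand).
MCM6: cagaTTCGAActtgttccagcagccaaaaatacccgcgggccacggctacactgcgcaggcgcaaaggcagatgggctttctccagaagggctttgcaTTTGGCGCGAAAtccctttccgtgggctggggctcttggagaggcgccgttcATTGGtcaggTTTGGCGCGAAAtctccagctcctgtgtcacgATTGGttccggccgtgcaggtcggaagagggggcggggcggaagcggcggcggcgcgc
E2F1: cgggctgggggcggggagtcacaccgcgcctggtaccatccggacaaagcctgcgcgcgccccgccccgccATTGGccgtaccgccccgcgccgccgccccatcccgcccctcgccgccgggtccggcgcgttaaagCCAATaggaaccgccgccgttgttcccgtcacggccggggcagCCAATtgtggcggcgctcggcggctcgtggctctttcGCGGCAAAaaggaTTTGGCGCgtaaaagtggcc
CDC20: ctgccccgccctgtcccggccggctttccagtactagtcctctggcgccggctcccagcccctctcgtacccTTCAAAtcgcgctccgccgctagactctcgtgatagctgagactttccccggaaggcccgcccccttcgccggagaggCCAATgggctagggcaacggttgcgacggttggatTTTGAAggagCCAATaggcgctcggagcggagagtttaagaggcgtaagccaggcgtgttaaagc
CDK6: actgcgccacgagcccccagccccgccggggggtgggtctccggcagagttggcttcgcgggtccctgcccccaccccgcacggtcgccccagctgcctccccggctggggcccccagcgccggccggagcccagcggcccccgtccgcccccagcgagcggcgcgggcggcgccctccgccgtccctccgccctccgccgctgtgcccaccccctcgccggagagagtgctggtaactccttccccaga

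Promoter windows of 300 bases, from 250 before to 50 after a RefSeq start (GRCh38.p14), were given for 35 of the 45 genes, as 52 windows. An E2F word stood in a window of 12 of the 35 genes (34.3%), against 3.99% of the 27305 genes with a window. These were *CDC25A*, *CDC6*, *CDK1*, *CDT1*, *E2F1*, *E2F2*, *E2F3*, *MCM2*, *MCM3*, *MCM6*, *MCM7* and *RBL1*, mostly genes of replication licensing and of the E2F family. The CCAAT box was found for 22 genes (62.9%, against 39.7% of all genes) and the CHR for 9 (25.7% against 19.5%). The word TATAAA was in no member window, against 14.0% of all genes. Contacts were also counted by E2F word, with no test. Of the 10 genes with such a word and a promoter fragment, 6 had a contact in all 3 replicates, and 17 of their 99 contacts (17.2%) were in all 3, against 99 of 367 (27.0%) for the 21 genes whose windows held no E2F word. Of those 21 genes, 15 had a contact in all 3 replicates, and without *CDK6* their share was 74 of 320 (23.1%). A word match is a description of the sequence and no evidence of binding.

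Short partner fragments show what the other end of a contact is, and 6 of them, each 300 bases or less and called in all 3 replicates, are given whole on the plus strand of GRCh37. Capitals mark the HindIII ends, and all 632 distinct fragments of the member contacts had a HindIII site at both ends. The fragment contacted by both *CDKN1B* promoter fragments (chr12:12515148-12515341) and that contacted by *WEE1* (chr11:10330905-10331171) lie in introns of *BORCS5* and *AMPD3*, and the *CDK6* partner (chr7:92274752-92274939) lies in an intron of *CDK6* itself. The *CCND2* partner (chr12:4003684-4003918) lies in an intron of *PARP11-AS1*, and those of *E2F3* (chr6:20531428-20531698) and *CCNA1* (chr13:37291380-37291547) lie in no protein-coding gene.
CDKN1B partner: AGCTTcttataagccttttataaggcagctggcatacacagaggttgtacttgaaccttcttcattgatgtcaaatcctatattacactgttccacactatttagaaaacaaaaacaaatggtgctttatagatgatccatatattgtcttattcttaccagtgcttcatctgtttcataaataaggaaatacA
WEE1 partner: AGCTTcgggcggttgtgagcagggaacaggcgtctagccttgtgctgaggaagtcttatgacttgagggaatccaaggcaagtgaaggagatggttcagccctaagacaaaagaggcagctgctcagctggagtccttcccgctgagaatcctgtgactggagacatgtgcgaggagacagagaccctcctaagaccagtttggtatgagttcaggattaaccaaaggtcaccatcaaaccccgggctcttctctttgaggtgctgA
CDK6 partner: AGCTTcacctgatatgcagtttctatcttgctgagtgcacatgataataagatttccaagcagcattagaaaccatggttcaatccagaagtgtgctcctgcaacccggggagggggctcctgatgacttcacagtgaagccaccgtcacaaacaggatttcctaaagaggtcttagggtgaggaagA
CCND2 partner: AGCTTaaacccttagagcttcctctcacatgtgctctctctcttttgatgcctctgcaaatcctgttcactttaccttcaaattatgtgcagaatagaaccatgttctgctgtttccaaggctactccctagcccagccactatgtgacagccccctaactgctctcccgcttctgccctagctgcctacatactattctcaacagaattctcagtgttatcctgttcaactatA
E2F3 partner: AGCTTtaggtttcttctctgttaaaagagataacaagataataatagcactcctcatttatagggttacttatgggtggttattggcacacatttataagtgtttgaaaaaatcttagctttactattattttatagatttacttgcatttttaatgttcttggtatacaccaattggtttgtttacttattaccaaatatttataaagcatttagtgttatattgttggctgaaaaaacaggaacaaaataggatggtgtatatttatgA
CCNA1 partner: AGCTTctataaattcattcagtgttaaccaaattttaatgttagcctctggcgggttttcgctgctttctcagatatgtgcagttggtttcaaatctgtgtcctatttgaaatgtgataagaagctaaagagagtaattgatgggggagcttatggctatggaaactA

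The cell cycle promoter fragments made 365 contacts in replicate 1, 363 in replicate 2 and 359 in replicate 3, a mean of 362 ± 3.06 (SD, n = 3). The union of the replicates had 633 contacts, and 167 of them recurred in all 3 replicates, 120 in exactly 2 and 346 in a single replicate. The share in all 3 replicates was 26.4% (95% Wilson confidence interval 23.1 to 30.0%, which covers counting error only and takes neighbouring partners as independent), against 24.4% of the contacts of all promoter fragments, which lies inside that interval. This order depended on the score required. At a score of at least 7 the share was 25.6% for the members and 27.4% for all promoter fragments, at a score of at least 10 it was 23.8% and 30.5%, and without *CDK6* it was 24.2%.

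At least 1 contact in all 3 replicates was found for 33 of the 44 fragments, against 51.9% of all promoter fragments. By gene this was 29 of the 40 genes with a promoter fragment (72.5%), against 55.9% of the 15517 protein-coding genes with one. At a score of at least 7 it was 15 of the 40 genes (37.5%, against 35.5%), and at a score of at least 10 it was 9 (22.5%, against 18.8%). A cell cycle promoter fragment had a median of 10.5 partners, between 1 and 47, against 6 over all promoter fragments and 7 over those of protein-coding genes. At a score of at least 7 the medians were 4 for the members and 3 for all promoter fragments, and at a score of at least 10 both were 2. The member fragments were also longer, with a median of 8641.5 bp against 6591 bp, and the part of fragment length in the number of partners was not tested.

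**Figure D1:**
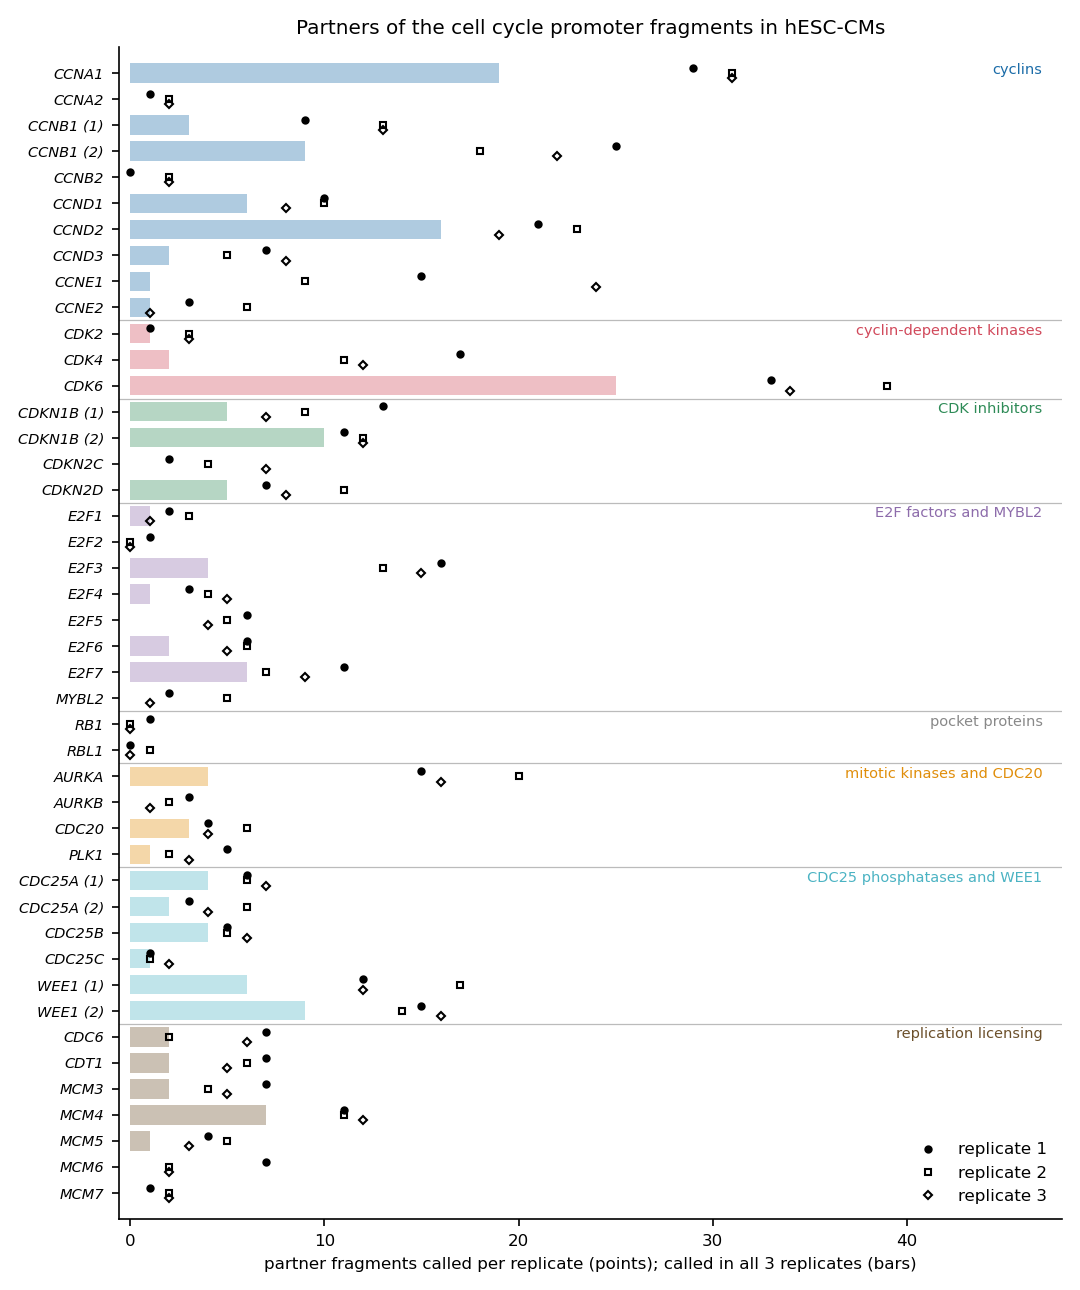
Partner fragments called for each of the 44 cell cycle promoter fragments, by role of the gene. Points give the number called in each of the 3 replicates and bars the number called in all 3, with (1) and (2) marking the pair of fragments of 1 gene in the order of their coordinates. The *CDK6* fragment had 25 partners in all 3 replicates, *CCNA1* 19 and *CCND2* 16, while 11 fragments had none.

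*CDK6*, *CCNA1*, *CCND2*, *CDKN1B*, *WEE1* and *CCNB1* held 102 of the 167 contacts in all 3 replicates (61.1%). These 6 are 15.0% of the 40 genes, and the same share of protein-coding genes, taken from the top, held 69.7% of theirs. Of the 167, 143 (85.6%) lay in 27 blocks of at least 2 partners less than 20 kb apart, from 2.37 to 114 kb long, in 20 genes, against 78.6% of such contacts over all promoter fragments. A fragment directly next to another partner in all 3 replicates was found in 103 of the 167 (61.7%) and in 60.6% over all promoter fragments. For 13 of the 18 member fragments with 3 or more such contacts, all of them lay on the same side of the promoter (72.2%), close to the 70.9% found over all promoter fragments. No contact joined promoter fragments of 2 different members. The members held 44 of 19075 promoter fragments, and the number expected for so few was not computed.

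The cyclins made 210 contacts from 10 fragments of 9 genes, and 57 were in all 3 replicates (27.1%). *CCNA1*, the A-type cyclin of the germ line, had 29, 31 and 31 partners in replicates 1, 2 and 3, and 19 were called in all 3. All 19 lay downstream of the gene on chromosome 13, from 291 to 568 kb away. The highest score was at the fragment from 37311458 to 37313011, between *SERTM1* and *RFXAP*, with 12.20, 14.65 and 15.15 in the 3 replicates, a mean of 14.0 ± 1.58 (SD, n = 3). This fragment stood in a block of 8 partners from 291 to 319 kb, and a block of 6 partners lay farther away in *ALG5*, at 535 to 568 kb, with mean scores up to 10.4. *CCNA2*, the A-type cyclin of dividing somatic cells, had 1, 2 and 2 partners and none in all 3 replicates.

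The D-type cyclins link growth signals to CDK4 and CDK6. *CCND2* had 21, 23 and 19 partners, of which 16 were in all 3 replicates, all upstream on chromosome 12. They formed a block of 10 over *PARP11* and its flank, 378 to 403 kb away, and a block of 6 between *PARP11* and *CCND2*, 228 to 248 kb away. Mean scores reached 10.5 in the far block and 7.06 in the near one, and the *CCND2* partner printed above belongs to the far block, with scores of 6.45, 7.16 and 5.99.

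*CCND1* had 10, 10 and 8 partners and 6 in all 3 replicates, all upstream on chromosome 11. In *TPCN2*, which encodes a channel of lysosomes, 5 of these partners lay 567 to 599 kb away, and the fragment from 68886943 to 68891662 scored 12.16, 15.48 and 11.58, a mean of 13.1 ± 2.10 (SD, n = 3). The remaining partner was the promoter fragment of *MYEOV* at 394 kb, with a mean of 6.86 ± 0.620. *CCND3*, whose fragment also holds the start of *TAF8* and not the canonical *CCND3* start, had 7, 5 and 8 partners, with the 2 in all 3 replicates over exons of *USP49*.

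*CCNB1*, the cyclin of mitotic entry, had a pair of promoter fragments with 9, 13 and 13 and with 25, 18 and 22 partners. The 3 contacts in all 3 replicates of the fragment with the canonical start were all shared with the other fragment, which had 9. The highest score was with the fragment from 68665829 to 68670977 on chromosome 5, which carries the promoters of *AK6*, *TAF9* and *RAD17*, 196 kb away, with 9.03, 11.45 and 15.36, a mean of 11.9 ± 3.19 (SD, n = 3). From the canonical fragment the same partner scored 10.67, 6.41 and 6.09. *RAD17* loads a DNA damage checkpoint clamp.

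The other cyclins had few recurrent contacts. *CCNE1* had 15, 9 and 24 partners, the widest range between replicates in the group, and 1 in all 3, inside *ZNF536* at 838 kb with a mean score of 6.93 ± 1.15. *CCNE2*, which with *CCNE1* activates CDK2 for entry into DNA replication, had 3, 6 and 1 partners, and the 1 in all 3 was the promoter fragment of *INTS8* at 81.3 kb. *CCNB2* had 0, 2 and 2 partners and none in all 3.

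Among the kinases, *CDK6* held 25 of the 28 contacts in all 3 replicates. It had 33, 39 and 34 partners in replicates 1, 2 and 3. Downstream on chromosome 7, 24 of the 25 formed a single block of 114 kb, from 132 to 241 kb away, over introns and exons of *CDK6* itself and the promoter of *FAM133B* beyond it. The highest score fell on the fragment from 92252144 to 92253849, over a *CDK6* exon, with 14.81, 14.61 and 17.65, a mean of 15.7 ± 1.70 (SD, n = 3). The intronic fragment from 92260420 to 92261641 scored 12.73, 12.41 and 14.93, and the intronic fragment printed above scored 10.94, 9.28 and 9.98. The remaining contact lay 211 kb upstream between *CDK6* and *SAMD9*, with a mean of 9.63 ± 1.19.

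*CDK6* also set the members' share of contacts within the gene itself. Of its 47 contacts 31 lay in *CDK6*, against 1 of the 586 contacts of the other members in the gene they belong to, an intron of *MCM5*. Counting any gene with a start in the promoter fragment, 5.37% of the member contacts lay in such a gene, against 3.98% for all promoter fragments. *CDK4*, which shares the D-type cyclins with *CDK6*, had 17, 11 and 12 partners and 2 in all 3 replicates, between *CTDSP2* and *ATP23*, with mean scores of 5.57 and 6.71. *CDK2* had 1, 3 and 3 partners, and the 1 in all 3 lay 10.7 kb away in *RAB5B*, which also has a start in the *CDK2* promoter fragment.

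The CDK inhibitors made 54 contacts, and 20 of them were in all 3 replicates. *CDKN1B*, which inhibits CDK2 complexes, held 15 of the 20 through its pair of promoter fragments on chromosome 12, all upstream. The fragment that starts at 12864726, with the canonical start, had 11, 12 and 12 partners, and the other, shared with *GPR19*, had 13, 9 and 7. The highest mean score of any cell cycle contact was at the canonical fragment and the promoter fragment of *BCL2L14* (12197374 to 12203507), a BCL2 family gene 668 kb away, with 15.45, 29.09 and 19.79, a mean of 21.4 ± 6.97 (SD, n = 3). Replicate 2 stood well above the others. Without it the mean was 17.6, below the 21.8 of the highest *E2F6* contact. In the merged calls this contact scored 19.19, below the highest contacts of *MCM4* (25.54), *E2F6* (22.71), *CDK6* (21.13) and *CCNA1* (20.65).

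The 5 contacts in all 3 replicates of the *GPR19*-sharing fragment all lay in introns of *BORCS5*, 308 to 331 kb away, and each was also called in all 3 from the canonical fragment. The fragment from 12515148 to 12515341, printed above, scored 10.91, 11.63 and 12.16 from the former and 12.42, 10.09 and 11.42 from the latter. The means of 11.6 ± 0.627 and 11.3 ± 1.17 (SD, n = 3) differed by less than the spread between replicates.

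*CDKN2D*, an inhibitor of CDK4 and CDK6, had 7, 11 and 8 partners, of which 5 were in all 3 replicates. Downstream on chromosome 19, the promoter fragment of *S1PR5*, a sphingosine-phosphate receptor, scored 12.74, 14.55 and 10.74, and that of *CDC37*, a chaperone partner of kinases, 12.48, 5.73 and 6.00. *CDKN2C*, of the same inhibitor family, had 2, 4 and 7 partners and none in all 3, from a fragment without the canonical *CDKN2C* start.

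**Figure D2:**
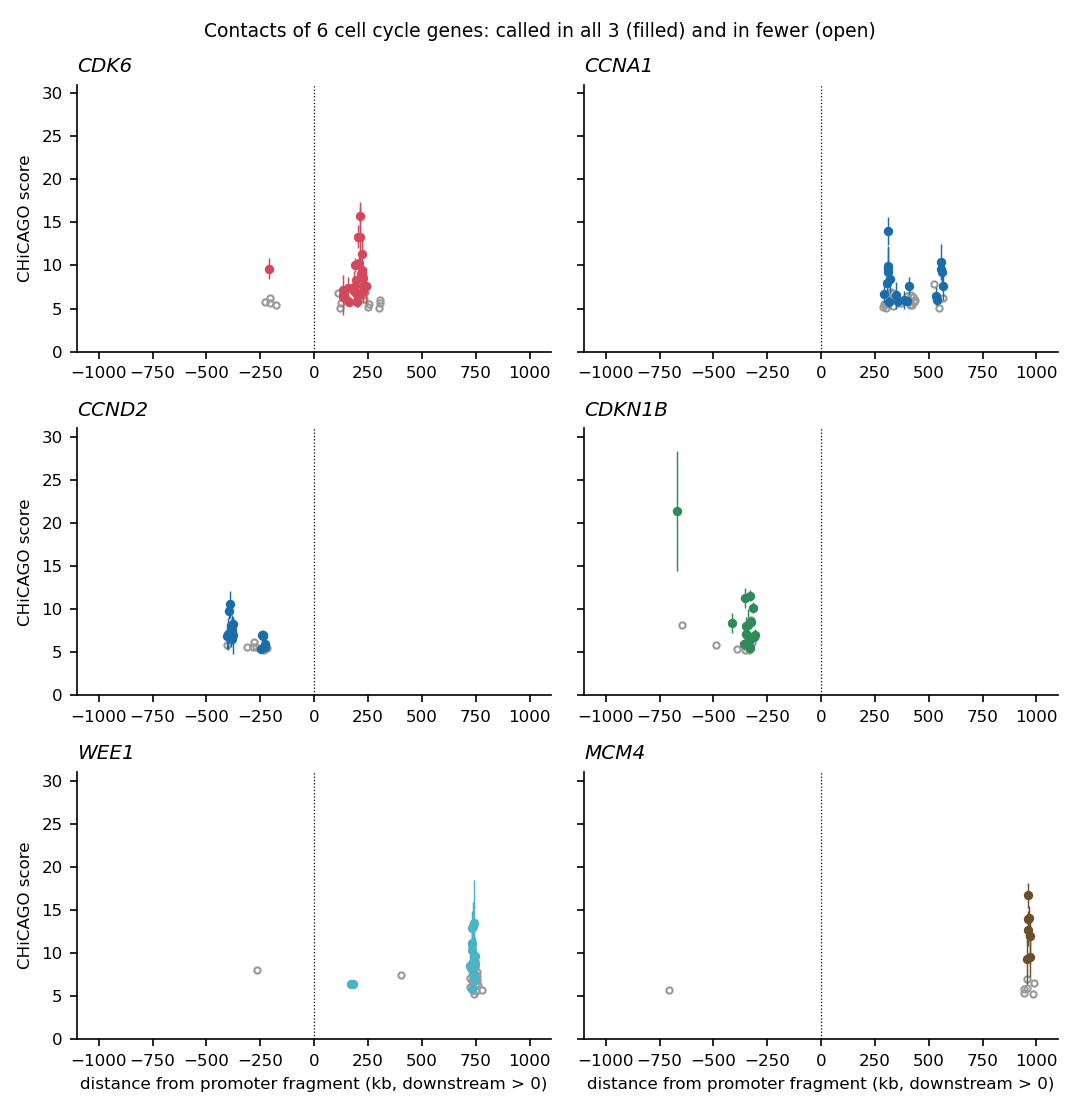
CHiCAGO score against signed distance from the promoter fragment (kb, downstream of the gene above 0) for 6 genes, with both promoter fragments of *CDKN1B* and *WEE1* in their panels. Filled points are means of contacts in all 3 replicates with SD bars, and open points are means over the 1 or 2 replicates that called the others. Of the contacts, 186 are drawn and 18 beyond 1100 kb or on other chromosomes are not, none of them in all 3 replicates. The *CCND2* and *CDKN1B* contacts lay upstream, those of *CCNA1*, *WEE1* and *MCM4* that were in all 3 downstream, and *CDK6* had 24 downstream and 1 upstream.

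The E2F factors and *MYBL2*, transcription factors that read out the state of the kinases, had 85 contacts from 8 fragments, with 14 in all 3 replicates (16.5%). *E2F7*, an atypical repressor of the family, had 11, 7 and 9 partners and the most in all 3 of this group, 6, in a block in introns of *NAV3* on chromosome 12, 614 to 632 kb upstream. The fragment from 78080614 to 78081344 scored highest, with 11.16, 12.05 and 7.65, a mean of 10.3 ± 2.33 (SD, n = 3). *E2F6*, a repressor that works without pocket proteins, had 6, 6 and 5 partners and 2 in all 3. These were the promoter fragment of *C2orf50* on chromosome 2 (11272832 to 11276344), 331 kb downstream, with 20.24, 20.09 and 23.40, a mean of 21.2 ± 1.87, and its neighbour with a mean of 7.94 ± 0.916.

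*E2F1* and *E2F3* are activators of genes for DNA replication. *E2F1* had 2, 3 and 1 partners, and the 1 in all 3 lay over an exon of *RALY* on chromosome 20, 398 kb upstream, at 13.87, 11.73 and 11.95. *E2F3* had 16, 13 and 15 partners and 4 in all 3, of which 3 led up to the *CDKAL1* promoter 128 to 134 kb downstream and 1 lay between *ID4* and *MBOAT1* at 309 kb with a mean of 8.56 ± 2.22. The short *E2F3* partner printed above scored 6.58, 6.46 and 6.45.

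For the other factors the calls were sparse. *E2F4*, a repressor that works with pocket proteins, had 3, 4 and 5 partners and 1 in all 3, the *CES4A* promoter at 191 kb with a mean of 6.53 ± 1.50. *E2F5*, of the same type, had 6, 5 and 4 partners, and *E2F2* had a single call, in replicate 1. *MYBL2*, an activator of mitotic genes, had 2, 5 and 1 partners, among them a fragment of chromosome 2 between *STAM2* and *FMNL2* that scored 26.21 in replicate 1 and 10.49 in replicate 2 and was not called in replicate 3.

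The pocket proteins had the fewest contacts of the groups. *RB1* had 1 call, in replicate 1, from a fragment that holds the start of *LPAR6* and of 1 internal *RB1* transcript and not the canonical *RB1* start. *RBL1* had 1 call, in replicate 2.

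The mitotic kinases and *CDC20* had 55 contacts and 8 in all 3 replicates (14.5%), at a median distance over all their contacts of 1701 kb. *AURKA*, the kinase of spindle poles, had 15, 20 and 16 partners and 4 in all 3, all in or beside *DOK5* on chromosome 20, between 1675 and 1702 kb downstream. These were the 4 member contacts beyond 1 Mb in all 3 replicates. The fragment from 53262554 to 53263847 scored 17.32, 11.13 and 7.37, a mean of 11.9 ± 5.02 (SD, n = 3), so the replicates differed by more than 2 times. The *AURKA* fragment also holds the start of *CSTF1*.

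*CDC20*, which activates the anaphase-promoting complex, had 4, 6 and 4 partners, and its 3 in all 3 replicates were side by side on chromosome 1, 123 to 125 kb upstream, in introns of *EBNA1BP2* and *CFAP57*. The highest of them scored 9.93, 8.22 and 6.97. *PLK1*, a kinase of mitotic entry and exit, had 5, 2 and 3 partners and 1 in all 3, the promoter of *RBBP6*, which encodes a protein that binds RB1, 860 kb away with 7.49, 8.12 and 6.00. *AURKB*, the kinase of the chromosomal passenger complex, had 3, 2 and 1 partners and none in all 3.

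The CDC25 phosphatases remove, and WEE1 adds, the phosphate that blocks CDKs. Their 6 fragments had 68 contacts, and 26 were in all 3 replicates (38.2%), the highest share of the groups. *WEE1* had 15 of these 26, all downstream on chromosome 11. Its fragments lie side by side and had 12, 17 and 12 and 15, 14 and 16 partners, and 5 partners in all 3 replicates were common to both. Both contacted a block over *AMPD3*, which encodes an AMP deaminase, and the adjoining part of *SBF2*, 725 to 748 kb away, and each contacted a fragment over an exon of *SWAP70* at 180 and 172 kb.

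The fragment from 10331172 to 10331970, in an intron of *AMPD3*, scored 18.11, 8.18 and 14.08 from the fragment with the canonical *WEE1* start, a mean of 13.5 ± 4.99 (SD, n = 3), and 12.10, 12.04 and 9.37 from its neighbour. Its neighbour from 10330151 to 10330904, over an *AMPD3* exon, scored 13.26, 10.44 and 15.82 from the canonical fragment. The partner between them, printed above, scored 10.50, 13.24 and 9.36 from the other *WEE1* fragment.

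*CDC25A* had 6, 6 and 7 partners from 1 fragment and 3, 6 and 4 from the other. No partner was in all 3 replicates from both, unlike for *CDKN1B*, *CCNB1* and *WEE1*. Over calls in any replicate, however, they had 9 and 8 partners and shared 4. Each shared partner was in all 3 replicates from 1 of the fragments. In all 3 replicates the first contacted 4 fragments over *DHX30* and *MAP4* on chromosome 3. The second, with the canonical start, contacted in all 3 a fragment with the promoter of *TREX1*, a DNA exonuclease gene beside *ATRIP*. Its scores there were 6.12, 15.93 and 13.54, a mean of 11.9 ± 5.12 (SD, n = 3). The *CDC25B* fragment also holds the start of *CENPB* and not the canonical *CDC25B* start. It had 5, 5 and 6 partners and 4 in all 3, between *RNF24* and *SMOX*, with mean scores from 5.41 to 9.76. *CDC25C* had 1, 1 and 2 partners, and the 1 in all 3 lay 22.2 kb away at 7.14, 6.83 and 6.17.

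The licensing factors load the MCM helicase onto origins of replication. Their 7 fragments had 73 contacts and 14 in all 3 replicates (19.2%). The *MCM4* fragment, which also holds the start of *PRKDC*, had 11, 11 and 12 partners and 7 in all 3, a gapless run of neighbouring fragments 959 to 971 kb downstream, at and beside *SNAI2*. *SNAI2* encodes a repressor that acts in cell migration. The highest scored 16.37, 18.27 and 15.42, a mean of 16.7 ± 1.45 (SD, n = 3), and the *SNAI2* promoter fragment itself scored 12.17, 6.46 and 9.12. Whether these contacts belong to *MCM4* or to *PRKDC* cannot be told apart, since the starts share a fragment.

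The other licensing genes had contacts with lower scores. *MCM3* had 7, 4 and 5 partners with 2 in all 3, at mean scores of 5.43 and 6.54. *CDC6*, which loads the helicase together with *CDT1*, had 7, 2 and 6 with 2 in all 3 at *RAPGEFL1*, and *CDT1*, whose fragment also holds starts of *APRT* and *GALNS*, had 7, 6 and 5 with 2 in all 3, in *ACSF3* and at the *CDH15* promoter. *MCM5* had 4, 5 and 3 with 1 in all 3 at 14.8 kb. *MCM6*, with its paired E2F words, had 7, 2 and 2 and none in all 3, and *MCM7* had 1, 2 and 2 and none in all 3.

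In the calls of the replicates no promoter fragment was found for *CDK1*, *CDKN1A*, *E2F8*, *RBL2* and *MCM2*, of which *MCM2* had 1 in the merged calls, so their contacts could be seen only where their starts were the partner of another promoter. *CDKN1A*, the CDK inhibitor induced by p53, was contacted at its start fragment on chromosome 6 (36639873 to 36651290) by the promoter of *CPNE5* 157 kb away, with 6.22 in replicate 1 and 6.11 in replicate 2. The start fragment of *MCM2* was called with the promoter of *ZXDC* in replicates 2 and 3, at 12.17 and 8.16, and it had 1 further call in replicate 3. At *RBL2*, a pocket protein gene, 1 start fragment was called with the *ADCY7* promoter in replicate 1 (7.79) and another with the *NPIPB15* promoter in replicate 2 (5.49). None of these was called in all 3.

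**Figure D3:**
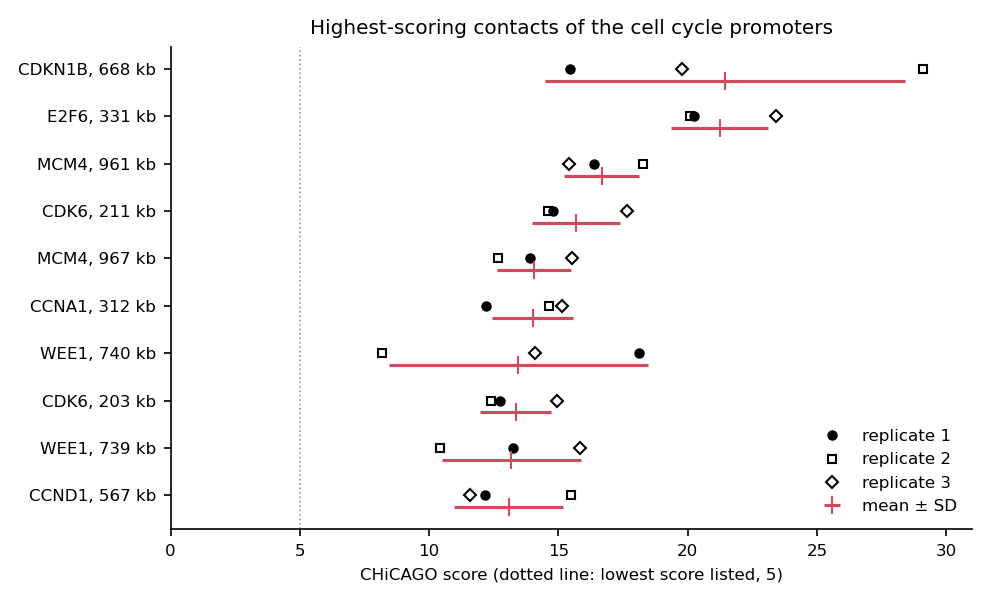
CHiCAGO scores of 10 of the 12 highest-scoring contacts in all 3 replicates, at most 2 for each gene, with the distance to the partner. The 2 contacts of *CDKN2D* are not drawn. Black symbols are the replicates and red marks the mean with SD bars. The *CDKN1B* and *E2F6* contacts at the top had means of 21.4 and 21.2, with SDs of 6.97 and 1.87.

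By mean score, the *CDKN1B* and *E2F6* contacts differed by less than the SD of the former. The lowest *E2F6* score, 20.09, lay above the highest *MCM4* score, 18.27, while the range of the *CDKN1B* scores overlapped that of *MCM4*. The *MCM4* and *CDK6* contacts, at 16.7 ± 1.45 and 15.7 ± 1.70, differed by less than their SDs. The members' contacts in all 3 replicates had a median mean score of 7.61, against 8.37 for all promoter fragments. A mean score of 10 or more was reached by 38 of the 167 (22.8%), against 33.5% of all. The median coefficient of variation between replicates was 13.8% for the members and 15.1% for all.

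The median distance to a partner was 402, 386 and 394 kb in replicates 1, 2 and 3, against 525, 532 and 560 kb for all promoter fragments. Over the union it was 570 kb, against 691 kb for all promoter fragments, 626 kb for those of protein-coding genes and 1029 kb for a list of other cell cycle genes. Without *CDK6* the union gave 651 kb, above the 626 kb of protein-coding genes, and the replicates gave 535, 428 and 414 kb against 484, 492 and 516 kb, so that replicate 1 alone was above. For contacts in all 3 replicates, with *CDK6* included, the median was 316 kb. It was 384 kb for all promoter fragments and 363 kb for those of protein-coding genes. *CDK6* held 25 of these 167 member contacts, and their median without it was not computed. Of the 633 contacts 205 spanned over 1 Mb (32.4%, against 39.6% of all), and 7 (1.11%) joined other chromosomes, against 3.65%.

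Recurrence fell with distance. From 100 to 250 kb, 57 of 113 member contacts (50.4%) were in all 3 replicates, against 40.2% of all such contacts. Those 57 include all 25 of *CDK6*, which lay 132 to 241 kb away, and the share without *CDK6* was not computed. From 500 to 1000 kb it was 40 of 133 (30.1%) against 26.7%, and from 1 to 2 Mb it was 4 of 46 (8.70%, 95% Wilson interval 3.43 to 20.3%) against 18.8%. The 4 contacts from 1 to 2 Mb were all of *AURKA*. Beyond 2 Mb none of 159 member contacts was in all 3 replicates (95% Wilson interval up to 2.36%), against 7.53% of all. These intervals take contacts as independent, though many came from the same promoter fragment. The *CDK4*, *CCNE1* and *E2F3* fragments, with 35, 38 and 30 contacts, had median distances of 4741, 2572 and 3213 kb.

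**Figure D4:**
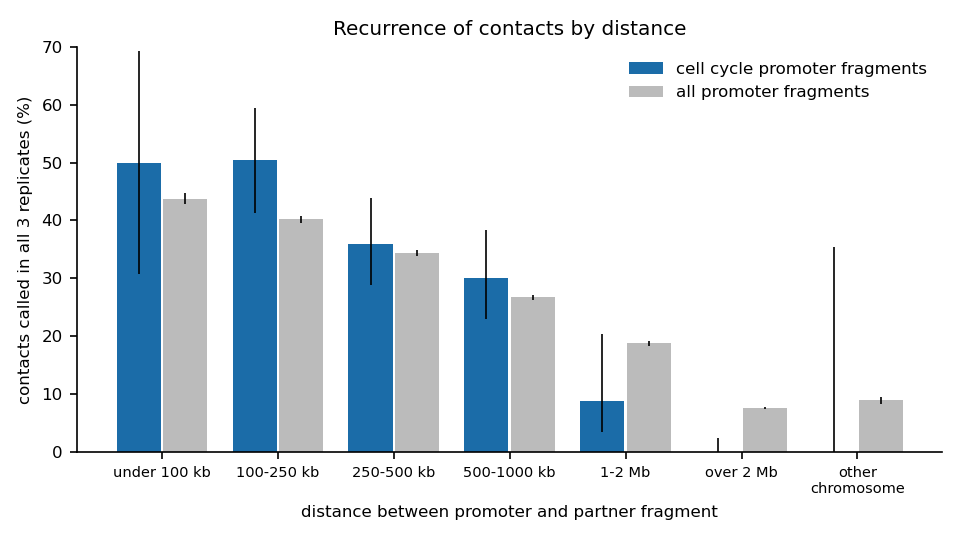
Share of contacts called in all 3 replicates (%) by distance between promoter and partner fragment, for the 44 cell cycle promoter fragments (blue) and all 19075 promoter fragments (grey). Lines are 95% Wilson intervals, which cover counting error only and take contacts as independent. The share fell from 11 of 22 member contacts under 100 kb to 0 of 159 beyond 2 Mb.

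Another promoter fragment was the partner in 99 of the 633 contacts (15.6%), or 16.2, 14.3 and 15.0% in the 3 replicates, against 18.3, 18.5 and 18.6% for all promoter fragments. In the merged calls the shares were close, 14.7% for the members and 14.9% for all promoter fragments. Of the 99, 25 were in all 3 replicates (25.3%), in 16 genes. The same share over all promoter fragments was not computed. Without contacts between 2 promoter fragments, 26.6% of member contacts and 23.6% of all contacts were in all 3 replicates. With them the shares were 26.4% and 24.4%. No annotated gene lay at the partner in 20.1% of the member contacts, against 26.0% of all. The share was 23.8% for fragments of protein-coding genes, and 23.1% for member fragments with the canonical start. A gene with no start in the promoter fragment covered the partner in 472 of the 633 member contacts (74.6%) and in 153988 of the 219827 contacts of all promoter fragments.

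The shared use of promoter fragments limits which gene a contact is given to. Of the 44 fragments, 16 also held a start of another protein-coding gene, with 200 contacts of which 50 were in all 3 replicates, and 36 held the canonical start of the member. The fragments without such a start of another gene had 433 contacts, of which 27.0% were in all 3.

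A list of 82 other cell cycle genes was set beside the members, covering further regulators, mitotic kinesins, checkpoint and DNA replication genes. Of its 72 genes with a promoter fragment, 50 had a contact in all 3 replicates (69.4%, against 72.5% of the members), and 24.5% of its 1237 contacts were in all 3. The gene with the most was *CCNG1*, with 219 contacts and 33 in all 3, followed by *MYC* with 41 and 24 and *RRM2*, a subunit of ribonucleotide reductase, with 36 and 22. Of 18 sarcomere genes with a promoter fragment, 14 had a contact in all 3 replicates (77.8%) and 42.1% of their 261 contacts were in all 3, at a median distance of 127 kb over all contacts. For 71 ribosomal protein genes these values were 64.8% and 26.6%. The members lay near the other cell cycle genes and the ribosomal protein genes in the share of contacts in all 3 replicates, and below the sarcomere genes. Of the 110 sarcomere contacts in all 3, *TPM1* held 25, *ACTC1* 19 and *MYH6* 16. The median number of partners in all 3 per promoter fragment was 2 for both members and sarcomere genes. It was 1 for the other 2 lists. These lists were chosen with the data known, and the differences between them were not tested.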

How the data were processed

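The deposited calls of 3 biological replicates and of the merged replicates were used. The authors aligned and filtered read pairs with HiCUP on GRCh37 (hg19), ran CHiCAGO with its default settings on them, and deposited the CHiCAGO score of each pair of HindIII fragments that scored 5 or more. Tool versions and read depth per replicate were not given in the sources used here, so precision is given only as SDs between replicates and 95% Wilson intervals on shares. Biological replicates are named as such in the labels, and whether they were separate differentiations was not given.

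Transcript starts came from GENCODE v44 lifted to GRCh37. Pairs listed in either order were merged, and distances are between fragment midpoints. A contact in all 3 replicates had both fragments at the same coordinates in each. Blocks are partners in all 3 replicates separated by less than 20 kb. RefSeq promoter windows (GRCh38.p14) were placed on GRCh37 by exact sequence match before printing. Contacts at promoter fragments of the members were set beside all promoter fragments, with no set test. The members, gene lists and rules were chosen with earlier results of these data known. The rule for contacts named in full took, in each role group, the member with the most contacts in all 3 replicates, and the 12 contacts with the highest mean scores, at most 2 per gene. Contacts between members and members without a promoter fragment or without a contact in all 3 were added. Other contacts were named after their values were seen. Some contacts of *CDKN2D* are not reported here.

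Results were recomputed at scores of at least 7 and at least 10, with each replicate left out, with the merged calls, with members as the captured end only, contacts within 1 Mb, starts of protein-coding transcripts only, no contacts between 2 promoter fragments, and matching within 5 kb. Leaving out *CDK6*, canonical-start fragments only, and fragments without a start of another protein-coding gene were added after seeing the data. The counting was tested on simulated calls with known answers. Software versions were samtools 1.23.1, pysam 0.24.0, matplotlib 3.10.9, pandas 2.3.3, scipy 1.17.1 and numpy 2.4.6, run under Python 3.11.15.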

Additional observations from a re-analysis of the deposited data

How the results depend on the processing

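Each value below is for the cell cycle promoter fragments, and it was compared with the SD between replicates, with the Wilson interval for the share in all 3 replicates, or with a factor of 1.5 for counts. The cause of the shifts was not tested. A score of at least 7 left 250 contacts, a median of 4 partners, a median distance of 561 kb, 14.0% of partners that are promoter fragments and 15 genes with a contact in all 3 replicates. A score of at least 10 left 80 contacts, 2 partners, 17.5% promoter partners, 23.8% of partners in no gene and 9 genes, against 633 contacts, 10.5 partners, 570 kb, 15.6%, 20.1% and 29 genes without a stricter score. The merged calls gave 9.5 partners, 306 kb and 14.7% promoter partners. With the members as the captured end only, the values were 9 partners, 627 kb, 7.13% promoter partners and 22.1% in no gene. Contacts of at most 1 Mb numbered 421, with 38.7% in all 3 replicates (34.2% for all promoter fragments), 8 partners, 337 kb and 18.3% in no gene. Starts of protein-coding transcripts alone gave 614 kb and 21.8% in no gene. Leaving out contacts between 2 promoter fragments gave 8.5 partners, 605 kb and 23.6% in no gene. Matching within 5 kb raised the share in all 3 replicates to 52.8%, against 47.8% for all promoter fragments. Among the settings added after seeing the data, leaving out *CDK6* gave 651 kb, and fragments with the canonical start gave 593 kb, 14.6% promoter partners and 23.1% in no gene. Fragments without a start of another protein-coding gene gave 11.5 partners, 549 kb, 14.5% promoter partners, 16.4% in no gene and 16 genes. With 1 replicate left out, the share called in both remaining replicates lay between 38.4 and 41.4%, the median number of partners between 7.5 and 9 and the median distance between 433 and 539 kb.

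For the 12 contacts with the highest scores, the merged score was higher than the mean in 11 of 12. Of the 167 member contacts in all 3 replicates, 167 were also in the merged calls, against 103 of the 120 in 2 replicates and 106 of the 346 in 1. The merged calls held 463 member contacts, of which 87 were in no single replicate. No paired analysis was possible because all 3 replicates belong to 1 group. Scores under 5 are not listed and depth per replicate is not known, so the 346 contacts in 1 replicate may include contacts that scored just under 5 in the others.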
